A study of Mus musculus with 6 samples.

Results

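Bone morphogenetic proteins (BMPs) are held in check outside the cell by secreted antagonists and inside the cell by inhibitory Smads, and their best known immediate targets are the Id genes. The 9 genes described here are the antagonists Nog, Grem1 and Chrd, the targets Id1, Id2, Id3 and Id4, and the inhibitory Smads Smad6 and Smad7. They were chosen by name for their place in this pathway, with earlier results of these data known. They were matched by Ensembl identifier, and all 9 were found among the 29616 genes of the deposited table. Their RNA was measured by sequencing in 3 control and 3 dexamethasone libraries from C57BL/6 mice. The treated mice received the synthetic glucocorticoid dexamethasone at 0.08 µg/g every day for 4 weeks from 8 weeks of age. According to the study's methods the controls were littermates, and saline is named as the control treatment of mice whose bones were imaged. The sample labels call the material bone cells, and the study describes them as cells positive for the bone matrix protein Osteocalcin, isolated from bones freed of marrow. The sources used here do not say how many mice went into each library, so the p-values measure only the spread between these libraries.

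BMPs bind pairs of type I and type II receptors on the cell surface, the receptors phosphorylate Smad1, Smad5 and Smad9, and these enter the nucleus with Smad4 and switch on target genes. Noggin, Gremlin and Chordin, the products of Nog, Grem1 and Chrd, bind BMPs in the extracellular space and keep them from their receptors, whereas Smad6 and Smad7 act inside the cell and are themselves made in response to the signal. Id proteins have a helix-loop-helix but no DNA-binding region, so that they tie up basic helix-loop-helix transcription factors in pairs that cannot bind DNA. In bone, BMP signaling is best known for driving precursor cells toward the osteoblast, the cell that lays down matrix.

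The libraries held between 72596611 and 89910728 reads assigned to genes, recovered from the deposited normalized counts. Of 12 osteoblast markers, 9 were lower and 2 (Spp1 and Dmp1) higher with dexamethasone beyond the cut-offs given below, and Bglap, which encodes Osteocalcin, had 107 ± 12.9 normalized counts in the controls and 12.2 ± 2.80 with dexamethasone (SD, n = 3 each), although Col1a1 had 961923 and 261192. Near-identical copies make the count of Bglap uncertain. Levels of markers of other cell types moved too. Summed normalized counts per library of the listed markers ran from 6374 to 6831 in the controls and from 22258 to 25111 with dexamethasone for chondrocyte markers, of which 2 rose (Sox9 and Col2a1) and 2 fell past the cut-offs. They ran from 150276 to 158231 and from 22818 to 24309 for pericyte and smooth muscle markers, mostly Acta2, with 3 lower. They ran from 2160.0 to 2280 and from 3257 to 3868 for endothelial markers, mostly Vwf, with 0 past the cut-offs. For hematopoietic markers they ran from 119 to 146 and from 799 to 857 (Cd53 and Itgb2 higher, Laptm5 and Coro1a lower). For adipocyte markers they ran from 273 to 359 and from 525 to 657, with 0 past the cut-offs. Most of this was Cebpa, with means of 274 and 538, while Pparg had 21.8 and 21.6. Of the defining markers of these cells, Acan, Cdh5, Tie1, Ptprc, Abcc9 and Adipoq each had at most 9 reads in any library. Some other members of these lists were well above 0, and the endothelial gene Vwf rose from 1825 ± 81.8 to 3097 ± 290.1 normalized counts (SD, n = 3 each). Kdr rose from 348 ± 17.3 to 414 ± 20.0 (log2 fold change 0.25, limma adjusted p = 0.00812). Over the alternatives its limma, edgeR and DESeq2 adjusted p-values ran from 0.00354 to 0.124. Tek, with few reads, had 12.6 and 8.11 (limma adjusted p = 0.146). Pecam1 had few reads, 11, 18 and 22 in the controls and 31, 26 and 18 with dexamethasone. As normalized counts these were 10.1, 17.6 and 19.3 against 29.6, 28.3 and 20.9, which do not overlap. Its log2 fold change was 0.74 (limma adjusted p = 0.0419). Over the alternatives the limma, edgeR and DESeq2 adjusted p-values ran from 0.0226 to 0.208. The part of any of these levels in the results that follow was not tested, and in bulk libraries fewer cells of a type cannot be told apart from less RNA per cell.

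The RNA of all 9 genes differed between the groups, with opposite directions among the Id genes and between the inhibitory Smads. Id1 rose 7.32-fold while Id2, Id3 and Id4 fell, and Smad7 rose while Smad6 fell. Among the antagonists, Nog fell 5.01-fold and Chrd 3.21-fold, whereas Grem1 kept 80.7% of its control level. A gene is said here to have risen or fallen where its adjusted p-value over all genes was under 0.05, and to be differentially expressed where its log2 fold change was also at least 1 in either direction. By limma, 17442 genes whose mean reached 10 normalized counts were tested, and all 9 passed this filter. Among the 9, only Id1 was differentially expressed upward, against 11.7% of all tested genes, and 3 (Nog, Chrd and Smad6) were so downward, against 10.6%. At the adjusted p-value alone 2 rose and 7 fell, and for each of the 9 the values of the groups did not overlap. Both counts have to be read against a series in which 72.5% of all tested genes passed the same adjusted p-value and 74.7% had groups that did not overlap. The median log2 fold change of the 9 genes was -0.60, beside 0.00071 for all tested genes. For each of the 9 genes an exact two-sided permutation test over 3 against 3 libraries gave p = 0.1, the smallest value this design allows. Values of single libraries are given in the order of replicates 1, 2 and 3.

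**Figure D1:**
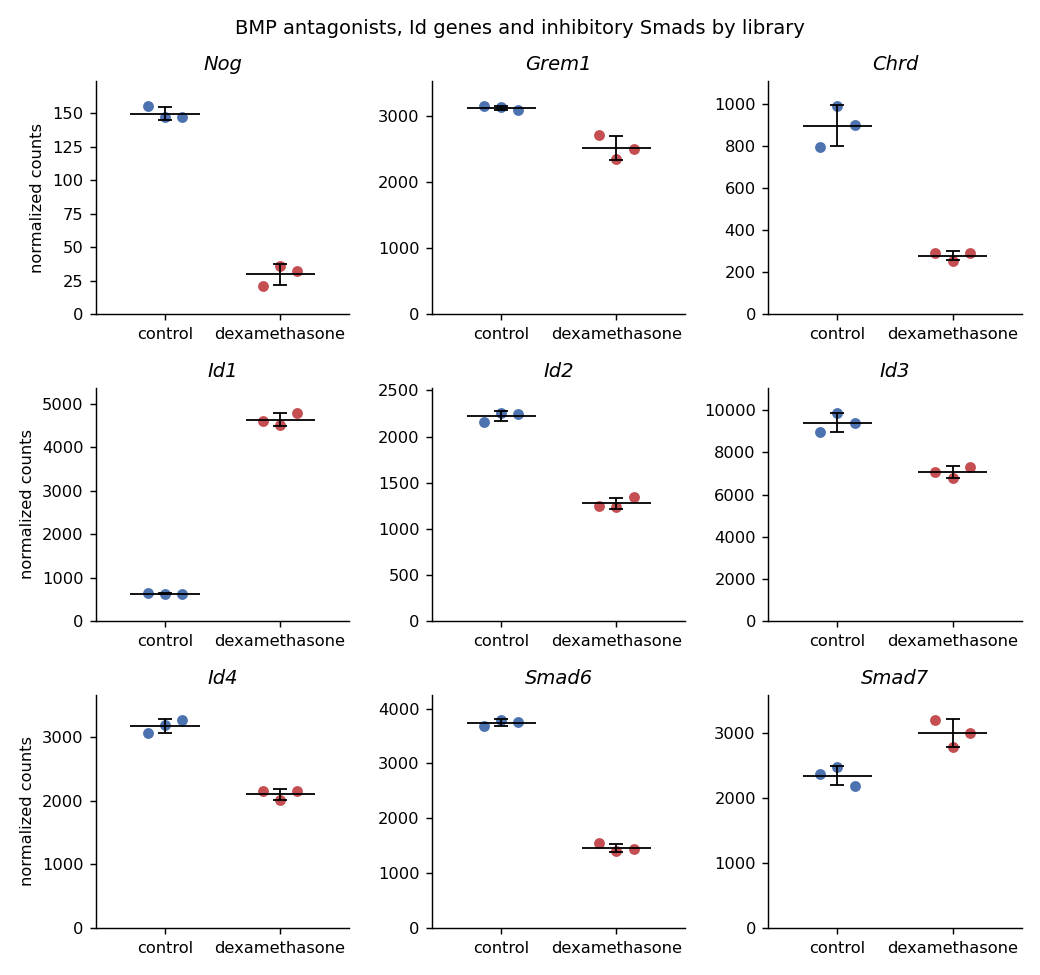
Normalized counts (linear axes that start at 0) of the 9 genes in each library, with 3 control libraries in blue and 3 dexamethasone libraries in red. Horizontal lines are means and bars are 1 SD, and the groups do not overlap for any of the 9 genes, with Id1 and Smad7 higher and the other 7 genes lower with dexamethasone.

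**Figure D2:**
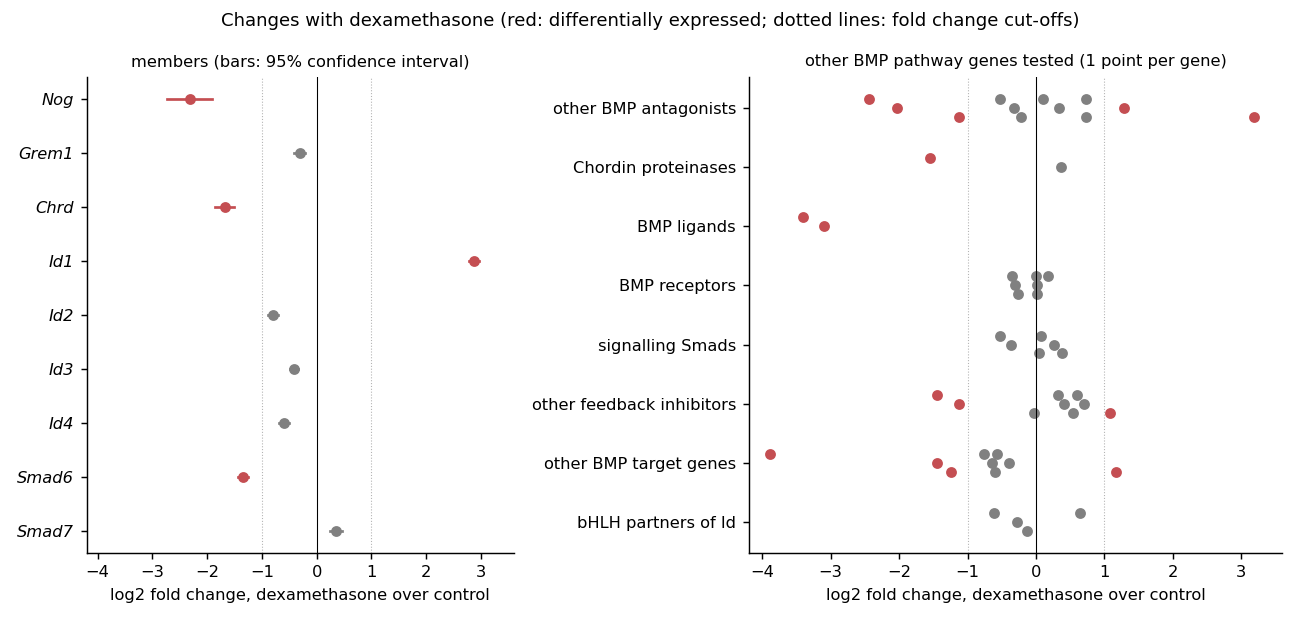
Log2 fold change (dexamethasone minus control) of each of the 9 genes with its 95% interval from limma (left), and that of each other tested pathway gene by list (right), with differentially expressed genes in red and dotted lines at the cut-off of 1 in either direction. Id1 lies above the upper line at 2.87, Nog, Chrd and Smad6 lie below the lower line at -2.32, -1.68 and -1.35, and the other 5 genes lie between the lines, while no receptor, signaling Smad or partner of Id proteins lies beyond them.

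Noggin binds BMP dimers and covers the surfaces that would touch the receptors. Nog (ENSMUSG00000048616) had 155, 147 and 147 normalized counts in the controls and 20.99, 36.0 and 32.6 with dexamethasone. The highest dexamethasone library thus lay far under the lowest control. Its log2 fold change was -2.32 (95% interval -2.73 to -1.92, limma adjusted p = 1.11e-10), and 310 of the tested genes (1.78%) had a larger fall. These are small numbers, 169, 150 and 167 reads against 22, 33 and 28, and Nog had the widest interval of the 9 genes.

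Chordin is a large secreted protein whose repeats bind BMPs, and proteinases of the Tolloid family cut it to free them. Chrd (ENSMUSG00000006958) had 797, 992 and 903 normalized counts in the controls and 293, 253 and 293 with dexamethasone. The controls were spread widely (SD 97.8), yet their lowest value stayed well above every dexamethasone library. The log2 fold change was -1.68 (95% interval -1.85 to -1.504, limma adjusted p = 3.30e-15). In the GENCODE M21 annotation 3.82% of the exon bases of Chrd lie opposite exons of Thpo, and the strand setting of the count is not given in the sources used here.

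Gremlin, of the DAN family of antagonists, binds BMP2 and BMP4. Grem1 (ENSMUSG00000074934) had 3152, 3132 and 3091 normalized counts in the controls and 2712, 2347 and 2505 with dexamethasone. The controls had an SD of 30.7 around a mean of 3125, and each dexamethasone library was lower. Its log2 fold change of -0.31 (95% interval -0.41 to -0.22, limma adjusted p = 1.69e-06) was the smallest in size of the 9 and did not reach the cut-off. Because Nog and Chrd fell further, Grem1 made up 76.5 ± 1.08% of the summed level of the 3 antagonists per kb of exon in the controls and 90.7 ± 0.890% with dexamethasone (SD, n = 3 each). This sum itself went from 976 to 1000.2 normalized counts per kb in the controls to between 627 and 713 with dexamethasone.

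Of 18 other secreted antagonists listed for the pathway, 12 were tested, and 6 rose and 6 fell, of which 2 and 3 were differentially expressed. Among all tested genes 72.5% passed the adjusted p-value in either direction. The shares differentially expressed were 11.7% upward and 10.6% downward, and these are the background for the lists below too. The median log2 fold change of the 12 antagonists was -0.06 (-0.17 at an equal total of all libraries and -0.27 after quantile normalization), and equal numbers went either way. This balance is not firm. Twsg1, among those that rose and named after its values were seen, had a log2 fold change of 0.09 that ran from -0.13 to 0.12 over the alternatives. Mgp, matrix Gla protein, an inhibitor of mineralization that also binds BMPs, rose from 16246 ± 903 to 147425 ± 5480.0 normalized counts (SD, n = 3 each), with a log2 fold change of 3.18 and a limma adjusted p of 1.21e-26. Nbl1, which encodes the antagonist DAN, rose from 2291 ± 104 to 5567 ± 394, with a log2 fold change of 1.28. The antagonists that fell included the most abundant relative of Chordin. Chrdl1, chordin-like 1, fell from 64188 ± 2675 to 15702 ± 639.9 normalized counts (log2 fold change -2.03), and Fst, follistatin, which chiefly binds activins, fell from 13338 ± 477 to 2468 ± 121 (log2 fold change -2.43). Bmper, a secreted BMP-binding protein with repeats like those of Chordin, had a log2 fold change of -1.12. Fstl1, follistatin-like 1, fell by 0.33 on the log2 scale, short of the cut-off.

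The 2 ligands of these antagonists that could be tested were lower as well. Of 13 BMP and related GDF genes listed, only Bmp4 and Gdf6 had enough reads to be tested, and both were differentially expressed downward. Bmp4 had 5583, 6138 and 5907 normalized counts in the controls and 726, 657 and 676 with dexamethasone, a difference of -3.10 on the log2 scale (limma adjusted p = 1.70e-25). Gdf6, a growth factor of joints and skull sutures, fell from 1080.3 ± 52.3 to 101.3 ± 5.04 normalized counts (SD, n = 3 each), a log2 fold change of -3.40. Ligand and antagonist can be compared within a library, where the size factors cancel. The log2 ratio of reads of Grem1 to reads of Bmp4 was -0.91 ± 0.0759 in the controls and 1.88 ± 0.0350 with dexamethasone, that of Chrd to Bmp4 -2.72 ± 0.0899 and -1.30 ± 0.0871, and that of Nog to Bmp4 -5.30 ± 0.113 and -4.56 ± 0.487 (SD, n = 3 each). All 3 ratios were higher in every dexamethasone library than in every control library, so the RNA of each antagonist fell less than that of Bmp4. For Nog the margin was narrow, -5.11 in dexamethasone replicate 1 against a highest control of -5.17. Each ratio gave p = 0.1 in the exact two-sided permutation test.

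Of the enzymes that cut Chordin, Bmp1, the first member of the Tolloid family, rose from 4627 ± 228 to 5950.5 ± 100.2 normalized counts (SD, n = 3 each), a log2 fold change of 0.36 that was 0.25 at an equal total and 0.18 after quantile normalization. Tll1, its less abundant relative, fell from 113 ± 9.09 to 38.2 ± 5.18, a log2 fold change of -1.55. The log2 ratio of reads of Bmp1 to reads of Chrd was 2.24 to 2.46 in the controls and 4.32 to 4.57 with dexamethasone (p = 0.1 in the exact permutation test).

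**Figure D3:**
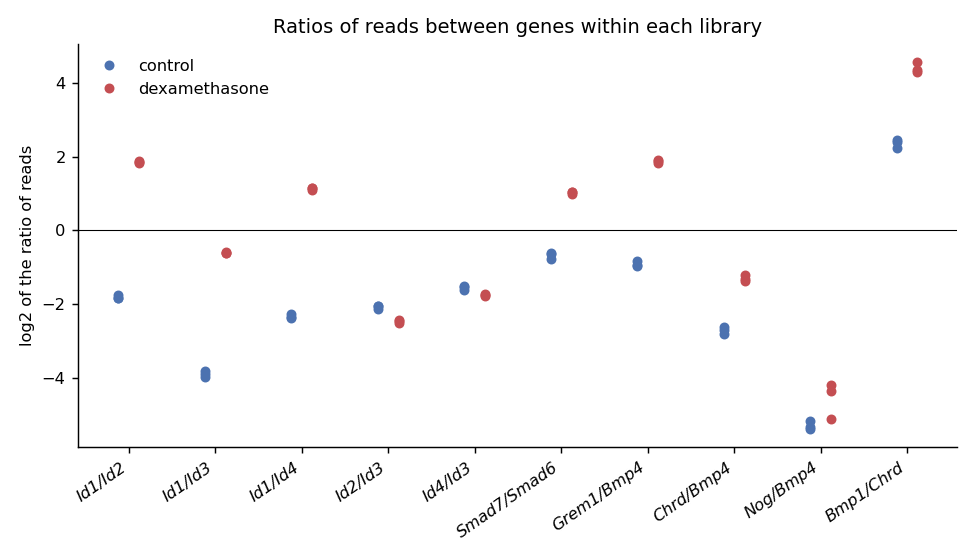
Log2 ratio of the reads of 1 gene to the reads of another within each library, which does not depend on the size factors, for pairs of Id genes, for Smad7 over Smad6, for the antagonists over Bmp4 and for Bmp1 over Chrd. Points are the 3 control and 3 dexamethasone libraries, and for every pair plotted the groups do not overlap, with the ratio of Id1 to Id2 going from -1.81 to 1.86 and that of Smad7 to Smad6 from -0.68 to 1.03 as means.

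The 4 Id genes encode the 4 vertebrate Id proteins, which overlap in the partners they bind but differ in where and when they are made. Id1 (ENSMUSG00000042745), which is often read as the most direct reporter of BMP signaling, had 639.9, 627 and 630.1 normalized counts in the controls and 4595, 4504 and 4793 with dexamethasone. Neither group was spread by more than a few percent of its mean, and the groups lay far apart. The log2 fold change of 2.87 (95% interval 2.78 to 2.96, limma adjusted p = 2.08e-25) was exceeded in the upward direction by 366 of the tested genes, or 2.10%.

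Id2 (ENSMUSG00000020644), whose protein is also an inhibitor of helix-loop-helix factors in blood and fat cell precursors, had 2160.2, 2257 and 2243 normalized counts in the controls and 1248, 1239 and 1346.5 with dexamethasone. Every dexamethasone library was well under every control. Its log2 fold change was -0.80 (95% interval -0.90 to -0.70, limma adjusted p = 1.34e-13), and the dexamethasone mean was 57.6% of the control mean.

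Id4 (ENSMUSG00000021379), known for roles in neural and bone precursors, had 3070.0, 3193 and 3279 normalized counts in the controls and 2157, 2008 and 2150.0 with dexamethasone. The groups did not overlap. Its log2 fold change was -0.60 (95% interval -0.69 to -0.51, limma adjusted p = 6.79e-12), with 66.2% of the control mean remaining. Non-coding genes on the opposite strand cover 4.44% of its exon bases.

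Id3 (ENSMUSG00000007872), which often accompanies Id1 in its response to BMPs, was the most abundant of the 9 genes in the controls. It had 8993, 9880.0 and 9375 normalized counts in the controls and 7082, 6783 and 7324 with dexamethasone. The groups did not overlap although the fall was modest. The log2 fold change was -0.41 (95% interval -0.50 to -0.33, limma adjusted p = 1.09e-09), and 75.01% of the control mean remained. None of Id2, Id3 and Id4 reached the cut-off of 1.

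The sum of the 4 Id genes changed far less than its make-up. Summed normalized counts of Id1 to Id4 were 14863, 15957.5 and 15526 in the controls and 15081, 14534 and 15614 with dexamethasone, so that the groups overlapped. Divided by the length of all annotated exons, which allows levels of different genes to be compared, Id1 supplied 7.24 ± 0.342% of the summed Id level in the controls and 44.3 ± 0.280% with dexamethasone (SD, n = 3 each). The share of Id3 went from 69.7 ± 0.778% to 43.8 ± 0.234%, that of Id2 from 12.1 ± 0.200% to 5.82 ± 0.114%, and that of Id4 from 11.0 ± 0.334% to 6.07 ± 0.141%. These shares depend on the length used, and with the longest coding transcript in place of all exons, an alternative chosen after seeing the data, Id1 went from 5.53% to 37.3% and Id3 from 74.7% to 51.6%. The order of Id1 and Id3 with dexamethasone is therefore not settled by these values, whereas Id1 gained share and Id3 lost it with both lengths. The summed level per kb of exon was 7257 to 7813 in the controls and 8700 to 9332 with dexamethasone, so here the groups did not overlap. Per kb of the longest coding transcript it was 9483 to 10247.5 and 10342 to 11105, higher with dexamethasone by a narrow margin. Whether the groups overlapped in the sum thus depended on dividing by length.

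**Figure D4:**
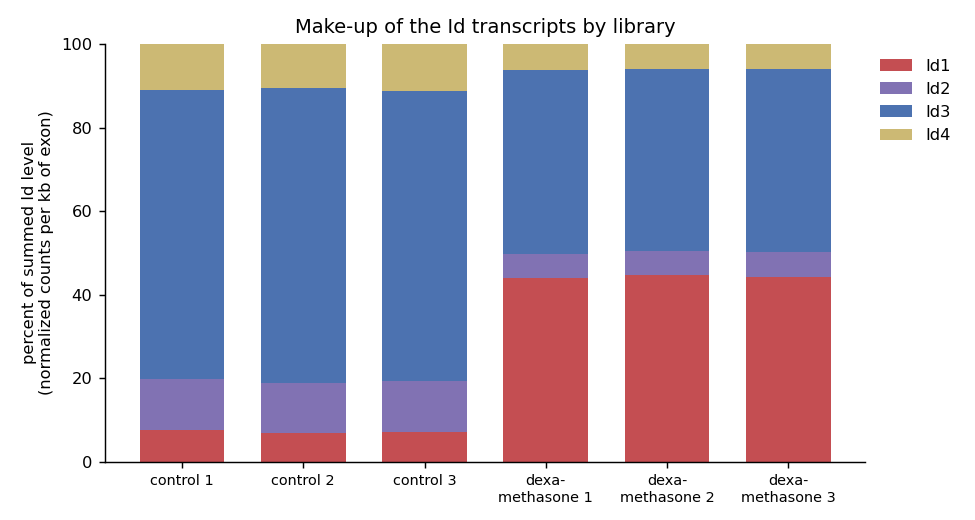
Share of each Id gene in the summed level of Id1 to Id4 in each library, in percent of normalized counts per kb of annotated exon. In the 3 control bars Id3 is the largest part at 69.2 to 70.6% and Id1 the smallest at 6.92 to 7.60%, and in the 3 dexamethasone bars each of them takes about equal parts, 43.5 to 44.0% and 44.1 to 44.6%.

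Within a library, the log2 ratio of reads of Id1 to reads of Id2 went from -1.81 ± 0.0493 to 1.86 ± 0.0247, a difference of 3.67. That of Id1 to Id4 went from -2.33 ± 0.0606 to 1.14 ± 0.0406, and that of Id1 to Id3 from -3.90 ± 0.0822 to -0.61 ± 0.0168 (SD, n = 3 each). The divergence of Id1 from the other 3 therefore does not rest on how libraries were scaled. The 3 that fell also shifted against each other by less, with log2 ratios of Id2 to Id3 of -2.08 ± 0.0401 and -2.47 ± 0.0332 and of Id4 to Id3 of -1.57 ± 0.0584 and -1.75 ± 0.0279. Each of these ratios had groups that did not overlap, with p = 0.1 in the exact two-sided permutation test.

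The proteins that Id proteins tie up include the products of Tcf3, Tcf4 and Tcf12, the widely expressed E proteins, and Twist1. Of the 4 that were tested 1 rose and 3 fell, and none was differentially expressed by limma, edgeR or DESeq2, although 4 of 4 had an unadjusted p-value under 0.05 in limma. By limma, 72.5% of all tested genes passed the adjusted p-value, and 11.7% and 10.6% were differentially expressed upward and downward. Tcf4 fell from 18626 ± 141 to 12186 ± 176 normalized counts (SD, n = 3 each), a log2 fold change of -0.61, and Tcf12 fell from 14542 ± 246 to 12011 ± 217, one of -0.28 (-0.47 after quantile normalization). Tcf3 was the partner that rose, from 7468 ± 197 to 11615 ± 660.2, with a log2 fold change of 0.64 and a limma adjusted p of 2.98e-13, and is named after its values were seen.

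Sequences just upstream of Id2, Id3, Id4 and Smad6 are shown. The RNA of each of these genes fell. Letters known from BMP-responsive promoters are marked where found, and the window of Id3 held no marked match. Windows of Id1, Nog and Smad7 were not searched, so the Id gene and the inhibitory Smad that rose are missing here. The sequences are the 250 bases before the RefSeq start of each gene in build GRCm38.p6, which is not the build GRCm39 named in the submitters' processing notes. With those of Chrd and Grem1, windows of 6 of the 9 genes were searched. The window of Id2 is chr12:25096093-25096342, minus strand, that of Id3 chr4:136143572-136143821, plus strand, that of Id4 chr13:48260866-48261115, plus strand, and that of Smad6 chr9:64022056-64022309, minus strand. The last runs 4 bases past the start so that a match across it is whole. Capitals mark matches to GGCGCC, the GC-rich Smad box, and to GTCTAGAC, the palindromic Smad element, each of which reads the same on both strands. The short Smad box GTCT, which is contained at both ends of the palindrome as GTCT and AGAC, is left in lower case elsewhere.
Id2: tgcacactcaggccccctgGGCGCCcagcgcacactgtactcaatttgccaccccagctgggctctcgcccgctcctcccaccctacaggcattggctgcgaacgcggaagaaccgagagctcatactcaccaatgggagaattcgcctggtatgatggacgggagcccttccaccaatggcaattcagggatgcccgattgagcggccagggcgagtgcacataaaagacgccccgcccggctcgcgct
Id3: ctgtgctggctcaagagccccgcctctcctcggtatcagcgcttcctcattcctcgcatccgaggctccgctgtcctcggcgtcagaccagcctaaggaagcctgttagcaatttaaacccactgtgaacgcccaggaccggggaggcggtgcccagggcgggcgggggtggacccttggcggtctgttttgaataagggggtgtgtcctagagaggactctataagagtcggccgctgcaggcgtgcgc
Id4: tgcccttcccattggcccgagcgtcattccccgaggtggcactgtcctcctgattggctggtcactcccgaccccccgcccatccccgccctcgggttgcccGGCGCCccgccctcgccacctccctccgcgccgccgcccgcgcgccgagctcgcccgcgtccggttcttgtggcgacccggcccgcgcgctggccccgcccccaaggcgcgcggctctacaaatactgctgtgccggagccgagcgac
Smad6: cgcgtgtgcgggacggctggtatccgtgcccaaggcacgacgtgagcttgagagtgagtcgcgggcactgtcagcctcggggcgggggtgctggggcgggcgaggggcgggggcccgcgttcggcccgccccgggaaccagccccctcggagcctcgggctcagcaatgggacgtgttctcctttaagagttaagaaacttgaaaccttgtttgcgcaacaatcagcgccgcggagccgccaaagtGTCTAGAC

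The letters GGCGCC stood 231 bases before the start of Id2 and 148 before that of Id4, as well as 203 before that of Chrd and 78 before that of Grem1, so that 4 of the 6 windows held them, against 9.71% of 32851 RefSeq promoter windows of the same length. These 6 windows are also richer in G and C, at 62.8 to 78.0%, than the median window at 52.4%. The palindrome GTCTAGAC began 4 bases before the start of Smad6 and was found in 57 of all windows, or 0.174%. The short box GTCT, read on both strands, was in 5 of the 6 windows (all but that of Id4) and in 83.0% of all windows. As dexamethasone acts through the glucocorticoid receptor, its 15-base element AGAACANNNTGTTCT was searched too and was in none of the 6 windows, and in 3 of all windows. One arm of that element, AGAACA or TGTTCT, was in the window of Smad6, 76 bases before the start, and in 16.3% of all windows. These are matches of letters only.

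Smad6 and Smad7 are the inhibitory Smads, of which Smad6 acts mainly on BMP signaling and Smad7 on BMP and TGF-beta signaling alike. Smad6 (ENSMUSG00000036867) had 3679.6, 3799.5 and 3749.7 normalized counts in the controls and 1543, 1403 and 1445 with dexamethasone. All dexamethasone libraries lay far under the controls. The log2 fold change was -1.35 (95% interval -1.45 to -1.26, limma adjusted p = 4.87e-19), a 2.56-fold lower mean.

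Smad7 (ENSMUSG00000025880) had 2365, 2474 and 2183 normalized counts in the controls and 3199, 2773 and 2999 with dexamethasone. The lowest dexamethasone library was above the highest control. Its log2 fold change was 0.35 (95% interval 0.25 to 0.46, limma adjusted p = 1.27e-06), under the cut-off, and over the alternative settings it lay between 0.20 and 0.41, the lowest value coming from quantile normalization. The log2 ratio of reads of Smad7 to reads of Smad6 went from -0.68 ± 0.0883 to 1.03 ± 0.0400 (SD, n = 3 each), so that Smad6 gave more reads than Smad7 in each control library and Smad7 more than Smad6 in each dexamethasone library. This reversal of order was also seen per kb of exon, with 1168 ± 18.8 for Smad6 and 518 ± 32.5 for Smad7 in the controls, and 457 ± 22.5 and 661 ± 47.2 with dexamethasone.

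Other inhibitors of the pathway inside the cell went in both directions. Of 9 listed and tested, 6 rose and 2 fell, and 1 was differentially expressed upward and 2 downward, with a median log2 fold change of 0.40. The shares over all tested genes were 72.5% at the adjusted p-value, and 11.7% upward and 10.6% downward with the fold cut-off. Skil, which encodes the Smad-binding repressor SnoN, rose from 3769 ± 163 to 8005 ± 84.6 normalized counts (SD, n = 3 each), a log2 fold change of 1.09 that was 0.97 with all libraries set to an equal total and 0.90 after quantile normalization, both short of the cut-off. Tob1, a repressor of proliferation that binds BMP Smads, fell from 9865 ± 455 to 4512 ± 147 (log2 fold change -1.13). Pmepa1, a target of TGF-beta that draws Smads away from receptors, fell from 4695 ± 187 to 1725 ± 103 (log2 fold change -1.44). Smurf2, a ubiquitin ligase that pairs with Smad7 to remove receptors, rose from 21124 ± 411 to 27933 ± 1038, a log2 fold change of 0.40 (0.26 after quantile normalization). Ski, the relative of Skil, had a log2 fold change of -0.04 (95% interval -0.12 to 0.05, limma adjusted p = 0.433), which became a fall with other scalings, at -0.15 (limma adjusted p = 0.000202) with an equal total and -0.22 (limma adjusted p = 1.59e-06) after quantile normalization. The limma, edgeR and DESeq2 adjusted p-values of Ski over all alternatives ran from 1.59e-06 to 0.823.

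The tested receptors had log2 fold changes from -0.35 to 0.17 and the Smads that carry the signal from -0.52 to 0.38. Of 7 tested receptors and co-receptors 1 rose and 3 fell, with 4 at an unadjusted p-value under 0.05, and limma, edgeR and DESeq2 each called 0 of them differentially expressed. Bmpr2, the main type II receptor, had a log2 fold change of -0.35, and Bmpr1a, the main type I receptor, one of -0.30, and after quantile normalization these were -0.52 and -0.49. Of 6 signal-carrying Smads 2 rose and 2 fell, with 5 at an unadjusted p-value under 0.05, and the 3 tools again called 0. By limma, 72.5% of all tested genes passed the adjusted p-value, and 11.7% and 10.6% were differentially expressed upward and downward. In lists of 7 and 6 genes, 0 called is not far from these last shares. Smad5, which carries BMP signals, had a log2 fold change of 0.07 (95% interval 0.0016 to 0.14, limma adjusted p = 0.0615), and Smad2, which carries TGF-beta and activin signals, one of 0.04 (95% interval -0.03 to 0.11, limma adjusted p = 0.347). Both signs turned with the scaling, to -0.042 and -0.078 at the same total and to -0.13 and -0.17 after quantile normalization.

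Among 9 other tested genes that BMPs are known to induce, 1 rose and 8 fell, and 1 and 3 were differentially expressed, with a median log2 fold change of -0.64. Most of this list thus had the sign of Id2, Id3, Id4 and Smad6 and not that of Id1. Of all tested genes, 11.7% were differentially expressed upward and 10.6% downward, and 72.5% passed the adjusted p-value in either direction. Dlx5, a homeobox gene of early osteoblasts, fell from 3576 ± 80.5 to 1307 ± 72.02 normalized counts (SD, n = 3 each), a log2 fold change of -1.45, and Dlx2, its relative, had one of -0.64. Atoh8, which encodes a basic helix-loop-helix factor, fell from 1619 ± 74.4 to 683 ± 71.7, a log2 fold change of -1.25. Hey1, a target shared with Notch signaling and named after its values were seen, had 106 ± 4.33 and 6.30 ± 1.17 normalized counts and a log2 fold change of -3.88. Gata2, a transcription factor of blood and vessel lineages, was the member that rose, from 189 ± 3.61 to 426 ± 22.9, a log2 fold change of 1.17. Over all the pathway genes listed beside the 9, 51 of 74 were tested, of which 4 were differentially expressed upward and 11 downward.

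Ranked by normalized counts per kb of exon, the 9 genes in the controls ran Id3, Smad6, Id2, Id4, Grem1, Id1, Smad7, Chrd and Nog, from 5257 ± 248 for Id3 to 88.2 ± 2.86 for Nog. In that order only Id1 and Smad7 overlapped between neighbors. With dexamethasone the order was Id1, Id3, Smad7, Grem1, Id4, Id2, Smad6, Chrd and Nog, from 3992 ± 127 for Id1 to 17.6 ± 4.63 for Nog (SD, n = 3 each). Here Id1 overlapped Id3, Smad7 overlapped Grem1, and Id4 overlapped Id2. Chordin and Noggin transcripts were thus the lowest of the 9 under both conditions, and Smad6 moved from the second place to the seventh. The genes whose log2 levels over the 6 libraries were most like those of Id3, the member with the highest mean, were Lage3, Mdh1 and Eif3h, each with a Pearson's r of 0.999. With 6 libraries in 2 groups such values are common, since 2908 of the 12020 genes compared had an r over 0.95 with Id3.

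Genes known to respond directly to the glucocorticoid receptor were high in the same dexamethasone libraries. Fkbp5, a chaperone of the receptor, had a log2 fold change of 4.41, Sgk1, a kinase, 4.25, Tsc22d3, the leucine zipper protein GILZ, 1.65, and Per1, a clock gene, 1.49. Zbtb16, with 0 reads in each control library, had 5.45 (3.25 to 8.42 over the alternatives). Klf9 had 0.66, short of the cut-off, and both are named after their values were seen. Of 6 such genes 6 rose and 5 were differentially expressed. The share of all tested genes differentially expressed upward was 11.7%, and 72.5% passed the adjusted p-value in either direction. Id1 rose by less on this scale than Zbtb16, Fkbp5 and Sgk1 and by more than Tsc22d3, Per1 and Klf9.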

How the data were processed

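RNA of 3 control and 3 dexamethasone libraries was sequenced after poly(A)-based stranded library construction. The authors aligned and counted the reads with STAR (2.7.10a) and deposited a signal per gene, the read count divided by a DESeq2 (1.36.0) size factor per library. The submitters' processing notes name build GRCm39. The annotation release and the strand setting are not given in the sources used here. All deposited values (100%, within 0.1 read) were whole multiples of the value of 1 read, and the recovered reads totaled 72596611 to 89910728 per library. Counting error is therefore small for abundant genes and largest for Nog.

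Columns were matched to samples by title, groups came from the treatment label, and symbols came from GENCODE M21 (GRCm38) by Ensembl identifier, which named 28087 of 29616 genes. Values of genes whose mean reached 10 were put on the log2 scale after adding 1, and limma (3.58.1, R 4.3.3) compared the groups with a mean-variance trend and Benjamini-Hochberg adjustment over 17442 genes. The added 1 makes fold changes of low genes smaller. The cut-offs, adjusted p under 0.05 and a log2 fold change of 1, followed the study. Alternatives were the count models of edgeR (4.0.16) and of DESeq2 (1.42.0) run on recovered reads, other scalings, filters and pseudocounts, a replicate block and leaving out each library.

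The 9 genes and all companion lists were chosen with earlier results of these data known. Named were all 9 members, of each companion list the differentially expressed genes whose mean reached 100 and the 2 with the highest mean, and the 3 genes most like the member of highest mean. Of the 75-base positions of the 9 genes, 97.75% (Chrd) to 100% occur in no other gene. Libraries of a group differed beyond sampling noise (chi-square over its degrees of freedom, 3.58 to 29.1). Promoter sequences came from RefSeq (GRCm38.p6), and motifs were matched on both strands.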

Additional observations from a re-analysis of the deposited data

How the results depend on the processing

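All 9 genes kept their direction and their side of the adjusted p-value of 0.05 and of the fold cut-off under every alternative that gave them a value. The count of differentially expressed genes, 3894, was 2170 with the filter raised to a mean of 100 and 5326 with no filter. It was 12645 at the adjusted p-value alone, because the fold cut-off was dropped, and 3878 to 3910 when each library was left out. Of the companion list medians under the alternatives, 121 stayed within 1 SD between libraries of the main value and 23 moved further. Without the fold cut-off 2 of the 9 genes were called higher and 7 lower. With the mean raised to 100 Nog was not tested, which left 2 called lower. Smad5 reversed to -0.042 and -0.13, and Smad2 to -0.078 and -0.17, at the same total and after quantile normalization, settings under which Skil missed the fold cut-off (0.97 and 0.90) and that moved the median of all genes to -0.11 and -0.07. Replicate numbers did not pair the libraries (correlations of deviations -0.16, -0.23 and -0.05, with 0 of 6 libraries closest to their own number), and with a replicate block 3897 genes were called. Depth limits the values of Nog, with 22 to 33 reads in the dexamethasone libraries, and of the BMP ligands too low to test.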
